A study of Mus musculus with 2 samples.

Results

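Mural cells are the contractile cells that wrap blood vessels, and here they were a small population among tdTomato-positive cells sorted from mouse knee joint cartilage. Members were chosen by measured values: a cell passed with 500 or more detected genes and 10% or less mitochondrial UMIs, then needed 2 or more of Notch3, Myh11, Rgs5, Gucy1a1 and Rgs4, at most 1 of the endothelial genes Emcn, Cdh5, Adgrl4, Flt1 and Selp, and at most 1 UMI of the cartilage gene Acan. The rule found 307 of 9247 passing cells in the trace library (3.32%, 95% interval 2.96 to 3.71) and 37 of 6533 in the pulse library (0.566%, 0.399 to 0.780). Both libraries came from Procr-CreER;tdTomato mice, in which Procr-expressing cells carry a tamoxifen-dependent Cre recombinase that switches on the red fluorescent protein tdTomato for good. Tamoxifen was given at 4 weeks of age. Trace cells were taken 4 weeks later and pulse cells 2 days later, so trace mice were also older. Each library pooled 3 mice, and in both the sort kept viable cells negative for CD45, Ter119 and CD31, a gate that removes blood and endothelial cells. Each group is 1 library, so no comparison has a replicate and none has a p-value. Intervals are exact 95% intervals that cover counting error only, and a difference between pools of mice cannot be read from them.

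Mural cells comprise smooth muscle cells of arterioles and venules and pericytes of capillaries. Notch3 receives signals from the endothelium and maintains them, contraction runs on smooth muscle actin and myosin, and nitric oxide relaxes them through a guanylate cyclase built from Gucy1a1 and Gucy1b1. Procr, the endothelial protein C receptor, presents protein C to thrombin bound to thrombomodulin (Thbd) and is best known from endothelium, where it limits clotting.

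Levels are UMIs summed over cells and scaled to the total UMIs of those cells, in CPM. The members held 877864 UMIs in trace and 86786 in pulse, with medians of 2325 and 1974 UMIs a cell. Xist, made from the inactive X chromosome, had 263 UMIs in trace members and 0 in pulse members. The Y-linked genes Ddx3y, Uty, Eif2s3y and Kdm5d had 0 UMIs in trace members, against 33, 37, 4 and 2 in pulse members. Chase time, age and the sex of the pooled mice therefore cannot be told apart. The libraries shared 16 cell barcodes, of which 0 were members.

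The markers fit the label for most members. The 7 mural markers that the rule did not use summed to 3064 CPM in trace members, against 199.6 CPM in all other passing trace cells, and to 1348 CPM in pulse members, against 400.3 CPM in other pulse cells. Notch3 was detected in 243 of 307 trace members, Rgs5 in 269, Myh11 in 161, Rgs4 in 164 and Gucy1a1 in 138. These 5 genes chose the cells, so their counts are a description. Of the markers outside the rule Tagln was detected in 194 trace members, Acta2 in 143 and Mcam in 151. In the pulse library Notch3 was detected in 25 of 37 members, Rgs5 in 33, Myh11 in 17, Tagln in 17 and Acta2 in 13, and Cnn1 had no UMI. The rule allowed a member at most 1 of the 5 endothelial genes it names. Flt1 was still detected in 8 of 37 pulse members, at 242 CPM, and in 96 of 6496 other pulse cells. In trace it was detected in 18 of 307 members and 331 of 8940 other cells. Emcn, Cdh5, Adgrl4 and Selp had 0 UMIs in pulse members. The other 10 endothelial markers summed to 174 CPM in trace members and 130.3 CPM in other trace cells, with Cldn5 at 0 in members. In pulse they summed to 104 CPM in members, from 9 UMIs, and 46.8 CPM in other cells, with Pecam1, Kdr, Tek, Cldn5, Plvap and Tie1 at 0 in members. The part of endothelial RNA in the results was not tested.

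The rule also took in cells of another kind. Prg4, the lubricin gene of joint surface cells, made up 0.5% or more of UMIs in 21 of 307 trace members and 10 of 37 pulse members. Of these Prg4-rich members, 12 of 21 in trace and 9 of 10 in pulse entered by Rgs5 and Rgs4 alone, against 23 of 282 and 1 of 27 of the members kept after the narrowing described next. Clic5, a synovial lining marker, was detected in 17 of the 21 and 9 of the 10, Acta2 in 3 and 1, and Notch3 in 6 and 1. The cut at 0.5% falls in a sparse range: 12 trace members and 2 pulse members had Prg4 between 0.2% and 1% of UMIs. A further 4 trace members, all with Myh11, carried 31 to 785 UMIs of 12 blood-cell genes, where no other trace member had over 4 and no pulse member had over 2. Their leading blood genes were Ighm, S100a9, Hbb-bs and Car2. Values are therefore also given for "narrowed" members, without the Prg4-rich and blood-gene cells, a cut set after these data were seen. It left 282 trace and 27 pulse members, of which 233 and 24 had Notch3. Neutrophil markers summed to 600 CPM in all trace members and 44.5 CPM in narrowed ones, and erythroid markers to 1102 and 44.5 CPM.

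At the edge of the rule the cells differed in Acta2 and Tagln, which it did not use. Trace cells with 1 choosing gene that otherwise qualified numbered 799 and had 4.88 CPM of Acta2, 28.7 CPM of Tagln and 27410 CPM of Prg4. Trace members with exactly 2 choosing genes, 96 cells, had 486 CPM of Acta2, 813 CPM of Tagln and 15448 CPM of Prg4. Trace members with 3 or more had 1082 CPM of Acta2, 1777 CPM of Tagln and 703 CPM of Prg4. On the endothelial side 2 trace cells and 1 pulse cell failed by carrying 2 endothelial genes, and 9 and 1 by carrying 3 or more. By Acan 6 trace and 0 pulse cells failed with 2 UMIs, and 29 and 6 with 3 or more.

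Trace members are set beside the other passing trace cells here as a description of what the rule gathered, with no test. The contractile genes stood out first. Acta2, smooth muscle actin, was 866 CPM in trace members and 4.43 CPM in other cells, a ratio of 196 (95% interval 165 to 232). Tagln, an actin-binding protein of smooth muscle, was 1427 CPM in trace members and 15 CPM in other cells (95.3-fold, 86.3 to 105). Myl9, a myosin light chain, was 374 CPM in trace members, against 2.27 CPM in other cells. Counts leave out the genes of the rule and take genes at 20 CPM or more in members or in other cells. Of 27 such contractile genes 25 were at least 2-fold above other cells and 0 were 2-fold below, where 16.1% of all 6905 genes were above and 12% below. Of 18 pericyte genes 15 were above other cells and 1 below. Abcc9, the regulatory subunit of the vascular ATP-sensitive potassium channel, was 137 CPM in trace members and 1.74 CPM in other cells, and Gja4, a gap junction protein, 155 CPM and 1.12 CPM. Cspg4, the NG2 proteoglycan widely used to mark pericytes, ran the other way at 53.5 CPM in trace members and 143 CPM in other cells (0.375-fold, 0.275 to 0.50), and it was detected in 36 of 307 members.

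Of 17 measured genes for vasoactive receptors and RGS proteins 13 were at least 2-fold above other cells and 2, S1pr1 and S1pr2, were below. Another 15 genes of the list were under 20 CPM on both sides. The endothelin receptor Ednra was 478 CPM in trace members and 11.1 CPM in other cells, and Ednrb 276 CPM and 9.53 CPM. Rgs7bp, which anchors RGS proteins at the membrane, was 382 CPM in trace members and 5.62 CPM in other cells. In the nitric oxide group 7 of 10 genes were above other cells and 2 below, Npr2 and Pde3b. Gucy1b1, the partner of the choosing gene Gucy1a1, was 191 CPM in trace members and 1.33 CPM in other cells, and the cGMP-dependent kinase Prkg1 1382 CPM and 275 CPM. Among ion channel genes 14 of 18 were above other cells, with the calcium channel Cacna1c at 733 CPM in trace members and 19.6 CPM in other cells. Kcnma1, the large-conductance potassium channel of smooth muscle, was the 1 gene of the list 2-fold below them, at 46.7 CPM in trace members and 552 CPM in other cells.

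Matrix genes ran in different directions. Of 20 basement membrane and integrin genes 14 were at least 2-fold above other cells and 3 below. Col4a1, a basement membrane collagen chain, was 942 CPM in trace members and 87.2 CPM in other cells, whereas the interstitial matrix gene Dcn was 986 CPM and 7745 CPM. Of 26 fibrous and elastic matrix genes 2 were 2-fold above and 16 were 2-fold below other cells. Among 14 perivascular factors 10 were above other cells and 2 below. The cytokine Il6 was 760 CPM in trace members and 15 CPM in other cells, and Ccl2, a monocyte attractant, 886 CPM and 45.3 CPM. The Notch list gave 8 of 12 above and 1 below, with the target Nrarp at 175 CPM in trace members and 1.48 CPM in other cells. The regulators Nr2f2, a transcription factor of venous and mesenchymal cells, and Epas1, an oxygen-responsive one, were 337 and 330 CPM in trace members, against 9.89 and 41.1 CPM in other cells.

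The 20 genes with the highest ratio over other trace cells, among genes at 100 CPM or more in members, were Myh11, Cck, Cap2, Dgkb, Notch3, Rgs4, Acta2, Rbm24, Gucy1a1, Myl9, Cdh6, Cabp1, Gucy1b1, Gja4, Nrarp, Ctnna3, Kcne4, Parm1, Tagln and Abcc9. Cck, the gene of the peptide hormone cholecystokinin, came second at 112 CPM in trace members and 0.417 CPM in other cells. It was detected in 42 of 307 members and 10 of 8940 other cells. Rbm24, an RNA-binding protein of muscle, was 185 CPM in trace members and 0.989 CPM in other cells, and Cap2, a regulator of actin filaments, was 301 CPM and 1.25 CPM. In this list 4 names, Myh11, Notch3, Rgs4 and Gucy1a1, are genes that chose the cells.

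Promoters are shown for Acta2, whose level separates members from other cells, and for Procr, the gene that labelled the cells. Both are RefSeq sequence from GRCm38.p6, 250 bases before to 50 bases after the gene start, read along the gene's strand. Acta2 lies at chr19:34255324-34255623 on the minus strand and Procr at chr2:155750967-155751266 on the plus strand. Capitals mark TGGGAA, the core bound by the Notch effector RBPJ.
Acta2: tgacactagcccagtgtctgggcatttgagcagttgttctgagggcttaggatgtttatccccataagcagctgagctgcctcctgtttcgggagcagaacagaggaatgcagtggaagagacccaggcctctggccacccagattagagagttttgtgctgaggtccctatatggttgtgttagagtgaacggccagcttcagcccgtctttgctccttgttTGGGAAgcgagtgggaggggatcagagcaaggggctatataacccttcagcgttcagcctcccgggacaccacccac
Procr: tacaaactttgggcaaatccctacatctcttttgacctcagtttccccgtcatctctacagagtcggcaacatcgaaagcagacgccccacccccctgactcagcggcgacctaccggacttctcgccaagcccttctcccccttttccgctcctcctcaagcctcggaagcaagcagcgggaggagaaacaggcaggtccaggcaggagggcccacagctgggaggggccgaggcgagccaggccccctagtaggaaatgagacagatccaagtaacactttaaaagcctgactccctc
Of 10 mural genes looked for, 7 had a promoter in the table (Acta2, Cnn1, Mylk, Des, Notch3, Rgs5 and Procr). TGGGAA, searched on both strands, was found in Acta2 alone, starting 27 bases before the gene start, and in 25.6% of all 32851 promoters. The CArG box of serum response factor, CC, then 6 bases of A or T, then GG, was found in 0 of the 7 and in 1.63% of all promoters. A match is a match of letters, and its absence concerns only exact matches in these 300 bases. The Acta2 sequence also holds ccctatatgg and ccttgtttgg, near forms of the CArG pattern that an exact search does not count. The marked TGGGAA overlaps the end of ccttgtttgg.

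Procr was highest in mural cells among the classes compared, with an interval apart from the others in trace but not in pulse. It reached 1161 CPM (1091 to 1234) in trace members and 922 CPM (731 to 1147) in pulse members. Connective fibroblasts followed with 330 CPM in trace and 646 CPM in pulse, then synovial lining cells with 299 and 367 CPM. In trace the intervals of those 2 classes overlapped, and in pulse the intervals of mural members and connective fibroblasts overlapped. Endothelial cells, the textbook site of the receptor, had 109 CPM in trace and 109 CPM in pulse, after a sort that removed CD31-positive cells. Cells with 2 or more choosing genes and 2 or more endothelial genes entered no class compared here. Of these, the 9 trace cells with 3 or more endothelial genes had 1382 CPM of Procr from 75 UMIs, and the 1 such pulse cell 9604 CPM from 47 UMIs. With exactly 2 endothelial genes, 2 trace cells had 2075 CPM from 13 UMIs and 1 pulse cell had 0. Chondrocytes had 16.8 CPM in trace and 9.49 CPM in pulse, and trace neutrophils 14.4 CPM from 9 UMIs, with overlapping intervals between the trace values. The order held without the doubtful cells: narrowed members had 1374 CPM in trace and 1529 CPM in pulse, and Prg4-rich members 282 and 202 CPM. One cell held 36 of the 80 Procr UMIs of pulse members (45.0%), and without it the pulse level was 530 CPM, below the pulse fibroblasts.

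**Figure D1:**
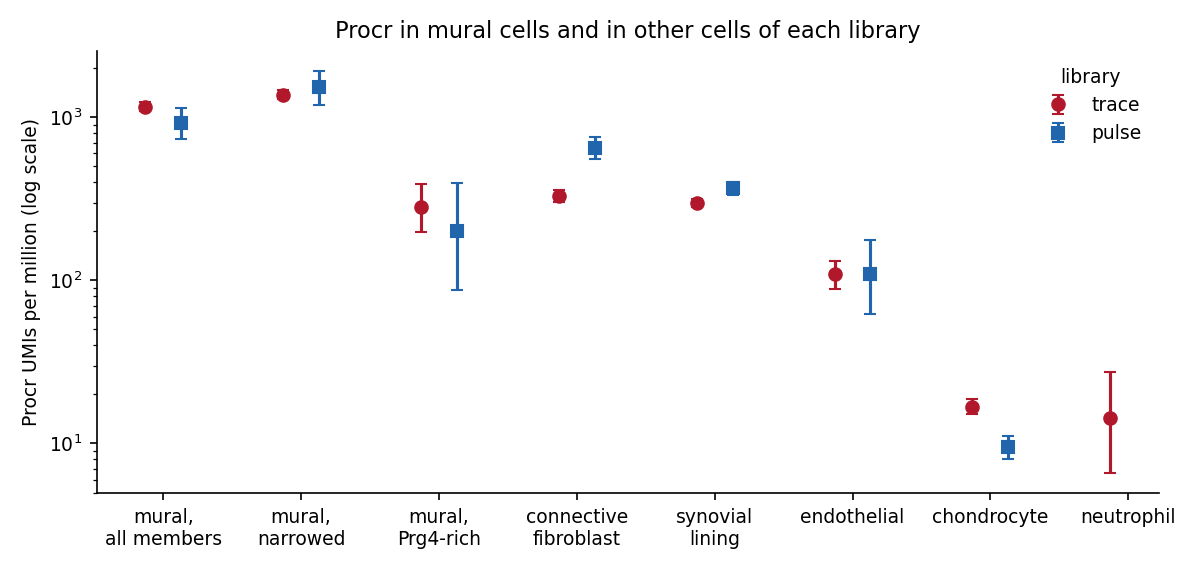
Procr level in CPM (log scale) in each class of cells, trace (circles) left of pulse (squares), with exact 95% counting intervals. Mural members lie highest, at 1161 CPM in trace and 922 CPM in pulse, where the interval overlaps that of fibroblasts and the value is 530 CPM without 1 cell, and Prg4-rich members lie lower, at 282 and 202 CPM; pulse neutrophils (3 cells) are not drawn.

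The receptor was unevenly spread over members. Of trace members 149 of 307 had a Procr UMI (48.5%, 42.8 to 54.3) and of pulse members 14 of 37 (37.8%, 22.5 to 55.2). After every cell was thinned to 2000 UMIs, which kept 192 trace and 18 pulse members, the shares were 49.0% and 44.4%. Trace neutrophils, which should lack the gene, had a share of 4.23% (4.07% thinned) at a median of 2508 UMIs. Of the trace members 158 had 0 Procr UMIs, 54 had 1 or 2, 71 had 3 to 9 and 24 had 10 or more. The 95 members with 3 or more held 92.6% of all Procr UMIs of trace members, and the highest cell held 71. Procr was close between members with Myh11 (1237 CPM) and without it (1082 CPM) in trace, a ratio of 1.14 (1.01 to 1.30). In pulse it was 1497 CPM with Myh11 and 573 CPM without it, but 1 cell held 73.5% of the UMIs of the side with Myh11. Without that cell this side was at 448 CPM. On the side without Myh11 1 cell likewise held 58.1% of 31 UMIs, so the pulse direction rests on single cells and cannot be read.

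Of 12 measured genes of the protein C and coagulation list 3 were 2-fold above other trace cells (Procr, Thbd and Plau) and 4 below (F3, Serpine2, Plat and Plaur). Thbd was 140 CPM in trace members and 60.4 CPM in other cells (2.32-fold, 1.92 to 2.78). The thrombin receptor F2r was 15.9 CPM in trace members and 12.1 CPM in other cells. The Tdtomato transcript was 149 CPM in trace members, against 46.1 CPM in pulse members, from 131 and 4 UMIs. It was detected in 87 of 307 and 4 of 37 members. Other passing cells with the transcript were also more frequent in trace, 1973 of 8940 against 699 of 6496 in pulse. Cells were sorted on the protein, so a cell without a Tdtomato UMI need not be a cell without the label. The trace level of Tdtomato was 133 CPM in connective fibroblasts and 126 CPM in lining cells, close to that of mural cells, and 6.40 CPM in neutrophils.

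Myh11, smooth muscle myosin heavy chain, was detected in 161 of 307 trace members and 17 of 37 pulse members. The rule takes its detection to divide smooth muscle from pericytes, and at these depths a cell without a UMI may still express the gene. Median depth was 2269 UMIs with Myh11 and 2397 UMIs without it in trace. Since the 5 choosing genes must occur in other combinations on the 2 sides, they are left out of this comparison. A gene counts as higher or lower here at 2-fold in CPM, among genes at 50 CPM or more on at least 1 side. Of 3929 such genes 6.8% were higher with Myh11 and 5.62% lower. In narrowed members the shares were 7.21% and 5.12% of 3886 genes.

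Most contractile genes were higher in members with Myh11. Of 27 measured, 18 were 2-fold higher and 0 lower, with a median log2 ratio of 1.40, against 0.07 over all genes. In narrowed members 17 of 27 were higher, with a median of 1.29. Acta2 was 1462 CPM in trace members with Myh11 and 254 CPM in those without (5.76-fold, 4.70 to 7.12), and it was detected in 104 of 161 and 39 of 146 cells. Tagln was 2330 CPM with Myh11 and 501 CPM without it (4.65-fold, 4.02 to 5.41). Further along the filament, Myl9 was 664 and 76.2 CPM and Tpm2, a tropomyosin, 603 and 157 CPM. The sharpest difference in the group was in Lmod1, which nucleates actin filaments in smooth muscle, with 151 CPM with Myh11 and 9.23 CPM without it (16.3-fold, 6.09 to 61.7). Pln, which restrains the calcium pump of the sarcoplasmic reticulum, was 90.0 CPM with Myh11 and 6.92 CPM without it, and the store protein Casq2 72.0 and 11.5 CPM. Itga8, an integrin of smooth muscle, had 28 UMIs with Myh11 and 0 without it. Its ratio is 9.10 when the side at 0 is given the 3 UMIs that a count of 0 allows over the group. Des, the intermediate filament desmin, belongs to the list and did not differ by 2-fold: 90.0 CPM with Myh11 and 94.6 CPM without it.

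The division was one of degree. Contractile genes without Myh11 took a median of 1.38% of a cell's UMIs in trace members with Myh11 and 0.541% in those without it. The ranges, 0.0944% to 9.4% and 0.0774% to 6.36%, overlapped almost wholly, and other trace cells had a median of 0.160%. In pulse members the medians were 0.881% with Myh11 and 0.470% without it.

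**Figure D2:**
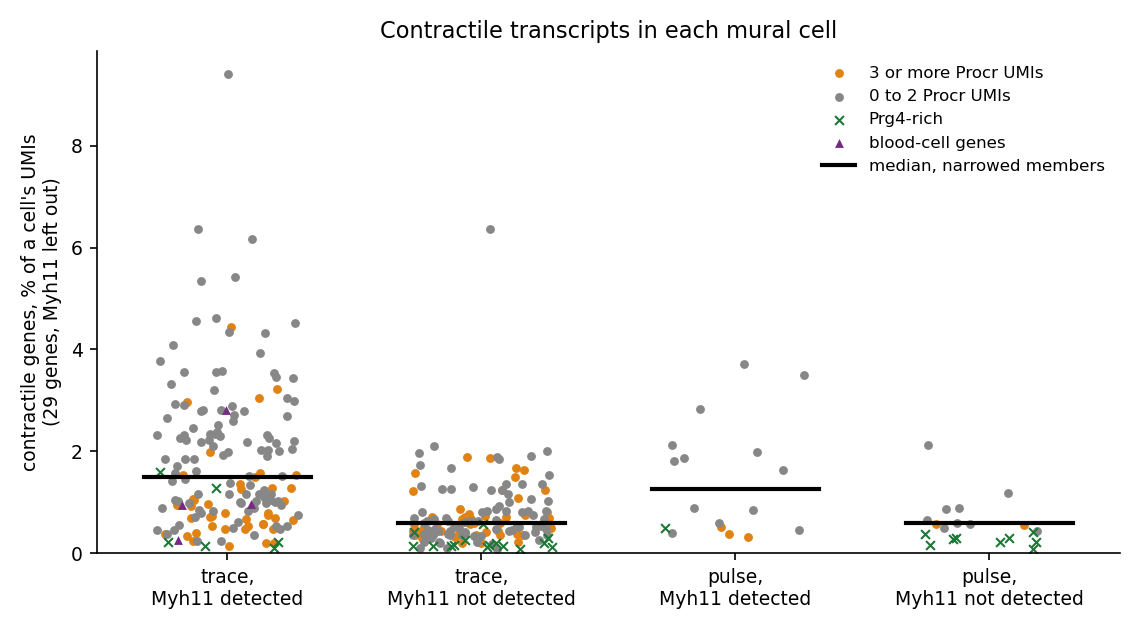
Share of each member's UMIs from 29 contractile genes, Myh11 left out, for members with Myh11 left of those without it, trace and then pulse; bars are medians of narrowed members. In trace those medians are 1.49% with Myh11 and 0.600% without it, with overlapping cells, and on the side with Myh11 33 of the 42 narrowed members with 3 or more Procr UMIs lie below that median, against 24 of 46 on the side without it.

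By the 2-fold count pericyte genes did not mirror the contractile ones. As a share of a cell's UMIs, pericyte genes outside the rule ran the other way by less. Their trace medians were 0.649% with Myh11 and 0.792% without it, and 0.658% and 0.886% in narrowed members. Of 15 measured, 0 were 2-fold higher with Myh11 and 2 were lower, Kcnj8 and Rgs16, which is 2 of 18 in narrowed members. Kcnj8, the pore of the vascular ATP-sensitive potassium channel, was 33.7 CPM with Myh11 and 78.5 CPM without it, but its partner Abcc9 was 119 and 155 CPM, short of 2-fold. Pdgfrb, the receptor that recruits pericytes, was 270 and 240 CPM. Mcam, an adhesion molecule of mural cells, was 407 and 254 CPM.

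Some receptors differed between the sides. Npy1r, a receptor for the sympathetic transmitter neuropeptide Y, was 124 CPM with Myh11 and 9.23 CPM without it (13.4-fold, 4.95 to 50.9), detected in 36 of 161 and 2 of 146 cells. Olfr558, an olfactory receptor also used as a smooth muscle marker in vessels, was 69.7 and 16.1 CPM. Of the 11 genes in the list 3 were lower with Myh11. Ednrb was 180 CPM with Myh11 and 374 CPM without it, the angiotensin receptor Agtr1a 27.0 and 92.3 CPM, and Rgs16 148 and 323 CPM. Ednra, the other endothelin receptor, was 409 and 549 CPM, within 2-fold. Among ion channel genes Kcnma1 and Cacnb2 were higher and Kcnj8 lower. Of 21 transcriptional regulators Mef2c, Tbx2 and Meox2 were higher. Mef2c, a MADS-box factor of muscle, was 400 CPM with Myh11 and 122 CPM without it. In the Notch list Nrarp was 261 and 87.7 CPM, and it stayed over 2-fold in narrowed members at 256 and 115 CPM.

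**Figure D3:**
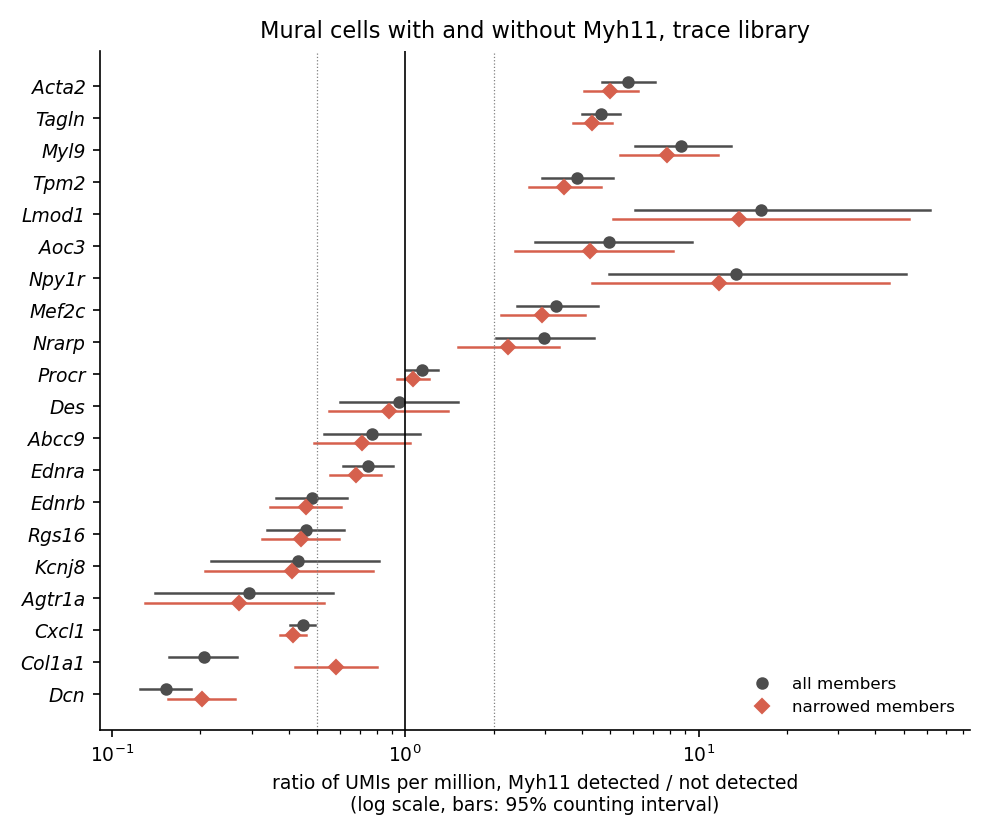
Ratio of CPM in trace members with Myh11 over those without it, for all members (circles) and narrowed members (diamonds), with 95% counting intervals on a log axis; dotted lines mark 2-fold. Contractile genes at the top lie at 3 to 17, Procr and Des near 1, and Col1a1 moves from 0.205 to 0.581 once members are narrowed.

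Fewer matrix genes were lower in members with Myh11 once the members were narrowed. Of 19 fibrous and elastic matrix genes 10 were 2-fold lower with Myh11 in all members, and 3 of 18 in narrowed members: Dcn, Lum and Fn1. Among members with 3 or more choosing genes Dcn hardly differed, with a log2 ratio of 0.073, and Col1a1 was higher with Myh11, at 1.47. Col1a1, the main fibrillar collagen chain, was 160 CPM with Myh11 and 778 CPM without it, but 183 and 314 CPM in narrowed members, within 2-fold. Fn1, fibronectin, was 1168 and 2853 CPM in narrowed members. Dcn, a small proteoglycan, was 199 and 979 CPM in narrowed members, where 1 cell held 49.4% of the UMIs of the side without Myh11. Of 12 perivascular factors 2 were lower with Myh11, Ccl7 and Cxcl1, and 3 in narrowed members. The neutrophil attractant Cxcl1 was 1300 CPM with Myh11 and 2905 CPM without it, and in narrowed members 1509 and 3642 CPM. Among the genes with the highest ratios, S100a9, Retnlg and S100a8 were blood genes that the narrowing removed.

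Procr-high members were set beside Procr-negative members within the narrowed trace cells, a comparison added after the data were seen, with genes chosen for their values. It holds 88 cells with 3 or more Procr UMIs and 147 with none, at median depths of 2485 and 1977 UMIs. Of 4168 genes at 50 CPM or more, Procr left out, 15.1% were 2-fold higher and 14.3% lower in Procr-high cells. Heme and antioxidant genes picked for their values were higher in them. Hmox1, the inducible heme oxygenase, was 2689 CPM in Procr-high and 239 CPM in Procr-negative cells (11.3-fold, 8.90 to 14.4), detected in 64 of 88 and 24 of 147 cells. Blvrb, which acts after it in heme breakdown, was 178 and 12.1 CPM. The antioxidant genes Srxn1 and Gclm were 237 and 305 CPM in Procr-high cells, against 18.1 and 60.5 CPM in Procr-negative cells. Sod2, the mitochondrial superoxide dismutase, was 779 and 136 CPM.

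Some perivascular factors were higher and some contractile genes lower in the Procr-high cells. Of 12 perivascular factors 6 were higher in Procr-high cells (Il6, Csf1, Lif, Ccl7, Ccl11 and Cxcl1) and 2 lower (Cxcl12 and Icam1). Cxcl1 was 4506 CPM in Procr-high and 1297 CPM in Procr-negative cells, and Il6 1431 and 587 CPM. Lrrc32, which docks latent TGF-beta on cells, was 508 and 66.5 CPM, and Thbd 271 and 72.6 CPM. Of 28 contractile genes 15 were lower and 0 higher in Procr-high cells, with a median log2 ratio of -1.26, against 0.13 over all genes. Acta2 was 377 CPM in Procr-high and 1576 CPM in Procr-negative cells (0.239-fold, 0.189 to 0.300), and Tagln 733 and 2474 CPM. Myh11 was 449 and 1158 CPM, with 42 of 88 and 87 of 147 cells detecting it. Within members with Myh11 alone 17 contractile genes were lower, and within those without it 6, counts with no share over all genes beside them. These splits held 42 Procr-high and 87 Procr-negative cells with Myh11, and 46 and 60 without it. Contractile genes other than Myh11 took a median of 0.771% and 2.19% of a cell's UMIs with Myh11. Without it the medians were 0.584% in Procr-high and 0.628% in Procr-negative cells. Notch3 did not differ by 2-fold, at 1169 CPM in Procr-high and 1140 CPM in Procr-negative cells.

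Among immediate early and heat shock genes, which respond to tissue dissociation, more were lower than higher in the Procr-high cells. Of 24 immediate early genes 11 were lower and 2 higher. Fos was 131 CPM in Procr-high and 1128 CPM in Procr-negative cells, and Egr1 29.6 and 798 CPM. Of 14 heat shock genes 6 were lower and 1 higher, the endoplasmic reticulum chaperone Hspa5. Hspa1b was 1173 and 7094 CPM. Of 12 metallothionein and glycolysis genes 5 were higher and 0 lower: Slc2a1, Gapdh, Pgk1, Eno1 and Pkm. With cells thinned to 2000 UMIs, the comparison held 60 Procr-high and 82 Procr-negative cells. The log2 ratio of Procr-high over Procr-negative cells was then -2.93 for Fos, against -3.10 without thinning. For Hmox1 it was 2.63, against 3.49. Acta2 was at -1.94, against -2.06, and Tagln at -1.75, against -1.76. The part of dissociation in these differences was not tested, nor was that of depth for the lists of this paragraph as a whole.

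The pulse library gave the same direction for the leading genes in few cells, 5 with 3 or more Procr UMIs and 18 with none. Hmox1 was 4832 CPM in Procr-high and 528 CPM in Procr-negative pulse members (9.15-fold, 5.01 to 18.1), and 1 cell held 54.4% of the Hmox1 UMIs of the Procr-high cells. Fos was 71.1 and 1503 CPM, Acta2 71.1 and 1056 CPM and Tagln 355 and 1421 CPM, resting on 1, 1 and 5 UMIs in the Procr-high cells. Of 14 heat shock genes 4 were higher in Procr-high pulse cells and 0 lower, where 23.4% of 3207 genes at 100 CPM or more were higher and 13.5% lower.

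High Hmox1 with high Procr was not confined to mural cells. In trace, cells with 3 or more Procr UMIs had more Hmox1 than cells with none among endothelial cells (9389 and 2337 CPM), connective fibroblasts (2802 and 732 CPM), synovial lining cells (1954 and 495 CPM) and chondrocytes (660 and 194 CPM). The ratios there were 3.41 to 4.02, against 11.3 in narrowed mural members. In pulse they were 5.72 in connective fibroblasts, 4.34 in lining cells and 6.46 in chondrocytes, against 9.15 (5.01 to 18.1) in mural members. A difference between classes was not tested. Fos was lower in Procr-high cells of those 4 trace classes as well, with 70.8 CPM in Procr-high and 654 CPM in Procr-negative lining cells. In pulse chondrocytes Fos was 402 CPM in Procr-high and 156 CPM in Procr-negative cells, with all 26 UMIs of the Procr-high side in 1 cell. Procr-high cells were deeper in every class, for example 5485 and 3543.5 median UMIs in trace lining cells.

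**Figure D4:**
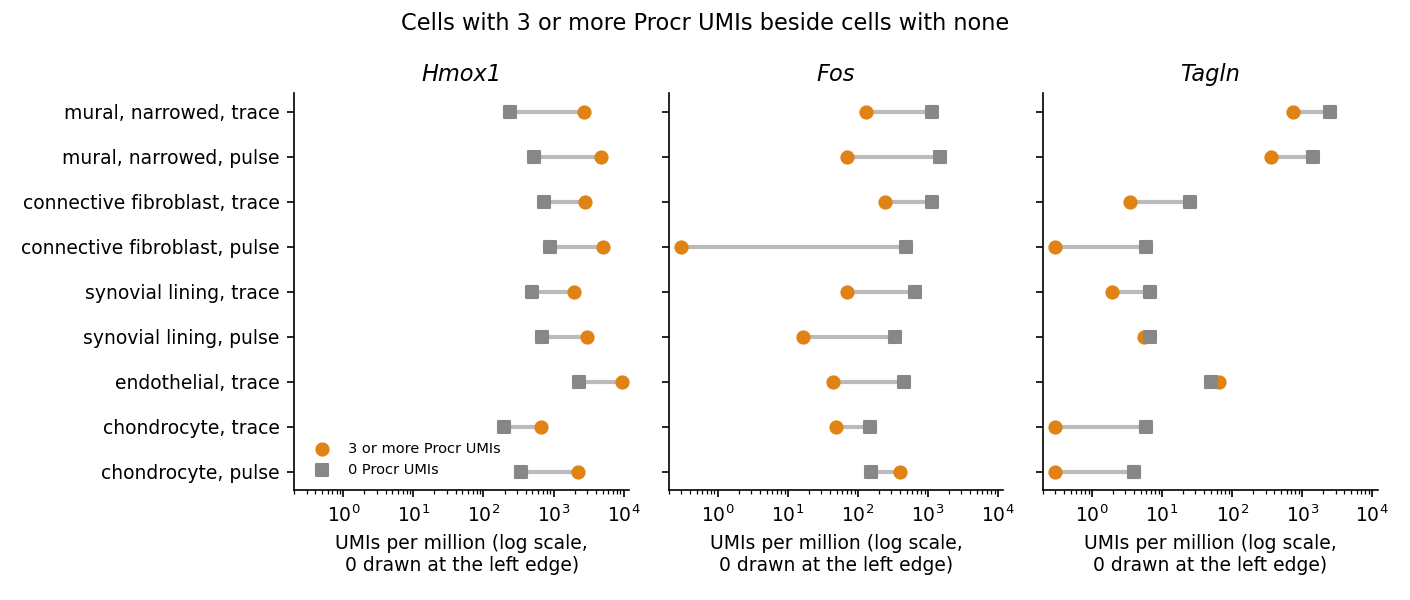
Hmox1, Fos and Tagln in cells with 3 or more Procr UMIs (circles) and with none (squares), by class and library, in CPM on a log axis. Hmox1 is higher in Procr-high cells in every row, from 2689 against 239 CPM in trace mural cells to 660 against 194 CPM in trace chondrocytes, and Fos is lower in every row but pulse chondrocytes.

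Trace was set over pulse within members, where a gene was measured if either library held 100 CPM of it, and called at 2-fold. Of 2514 genes 9.43% were higher and 20.5% lower in trace, and the median log2 ratio was -0.31. In narrowed members the shares were 11.4% and 26.7% of 2672 genes, with a median of -0.40. All other passing cells had 3.53% higher and 8.55% lower of 2094 genes, with a median of -0.29. Members differ in number between the libraries, and the small pulse pool of 37 cells lets single cells set a value. Prg4-rich cells held 39685 of the 86786 UMIs of pulse members and 131184 of the 877864 UMIs of trace members. They weigh more in the pulse pool, and values of all members carry this difference in make-up.

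Some receptors of vessel tone were higher in trace members. Of 10 vasoactive receptor and RGS genes measured 5 were 2-fold higher and 0 lower, and in narrowed members 6 were higher and 1, Npy1r, lower. Ednra was 478 CPM in trace members and 173 CPM in pulse members (2.77-fold, 1.66 to 4.99), and 2.11-fold in narrowed members. Outside the mural cells it was 11.1 CPM in trace and 12.6 CPM in pulse (0.885-fold). Rgs7bp was 382 CPM in trace members and 34.6 CPM in pulse members (11-fold, 3.75 to 53.8), but pulse holds 3 UMIs of it. S1pr3, a sphingosine phosphate receptor, was 202 and 23.0 CPM from 177 and 2 UMIs (8.75-fold, 2.39 to 72.8), and the vasopressin receptor Avpr1a 141 and 11.5 CPM from 124 UMIs and 1 UMI. Mgp, a calcification inhibitor made by smooth muscle, was 1833 CPM in trace members and 323 CPM in pulse members (5.68-fold, 3.92 to 8.58), 4.18-fold in narrowed members and 1.60-fold in other cells.

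Fewer contractile genes were higher in trace once the Prg4-rich and blood-gene cells were removed. Of 17 measured, 5 were 2-fold higher in trace members (Acta2, Tagln, Tpm1, Tpm2 and Mustn1), and in narrowed members 2 of 20 (Tpm2 and Flna). Acta2 was 866 CPM in trace members and 380 CPM in pulse members (2.28-fold, 1.61 to 3.33), and 1024 and 658 CPM in narrowed members (1.56-fold, 1.09 to 2.31). Tagln was 1427 and 519 CPM in all members (2.75-fold), and 1.78-fold in narrowed ones. Notch3 was 1139 CPM in narrowed trace members and 1062 CPM in narrowed pulse members. Procr was 1.26-fold (1.00 to 1.60) in all members and 0.899-fold (0.707 to 1.16) in narrowed ones.

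Some heat shock genes were lower in trace members. Of 14 measured 6 were 2-fold lower and 0 higher, 8 in narrowed members, and 0 of 13 passed 2-fold in other cells. Hspa1b, an inducible chaperone, was 4095 CPM in trace members and 18609 CPM in pulse members (0.220-fold, 0.207 to 0.234), and 0.691-fold in other cells. Hsph1, a co-chaperone, was 432 and 1740 CPM. Of metallothionein and glycolysis genes 5 of 11 were higher in trace members and 0 lower, while in other cells 0 of 12 were higher and 2 lower. Gapdh was 586 CPM in trace members and 242 CPM in pulse members, and 0.808-fold in other cells. The stress-induced genes Cdkn1a, a cell cycle inhibitor, and Ddit4, an inhibitor of growth signalling, were 359 and 247 CPM in trace members, against 127 and 34.6 CPM in pulse members. The part of dissociation in these differences was not tested.

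Transcripts that carry ribosomal RNA-like reads were higher in trace in members and in other cells. Cmss1 was 8891 CPM in trace members and 1141 CPM in pulse members (7.79-fold), and 12.1-fold in other cells, and Gm42418 was 5.12-fold in members and 10.4-fold in other cells. Among the lowest ratios, Cacna2d1, a calcium channel subunit, was 200 CPM in trace members and 2155 CPM in pulse members, but 1 pulse cell held 86.6% of its pulse UMIs. F13a1, a clotting factor subunit, was 227 and 1936 CPM in all members and 41.6 and 84.9 CPM in narrowed ones. Pard3b, a cell polarity gene, was 100.2 and 1187 CPM in all members and 116 and 594 CPM in narrowed ones.

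**Figure D5:**
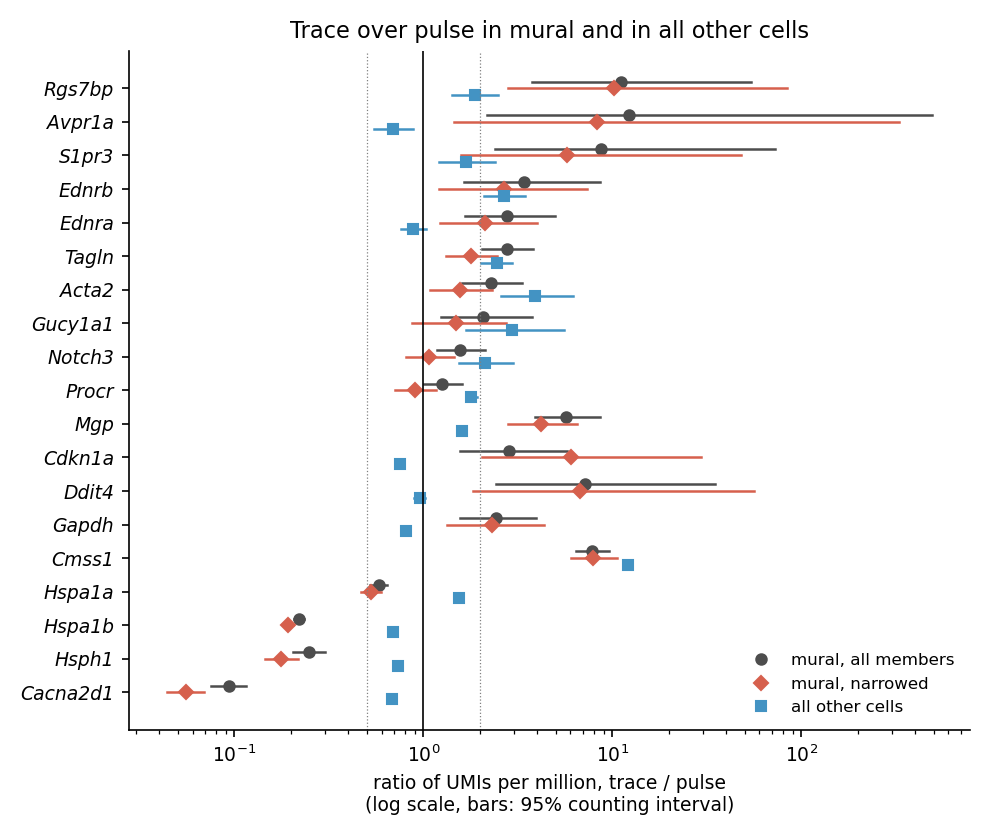
Ratio of trace over pulse CPM in all mural members (circles), narrowed members (diamonds) and all other passing cells (squares), with 95% counting intervals on a log axis; dotted lines mark 2-fold. Ednra lies above 2 in members and at 0.885 in other cells, Hspa1b lies at 0.220 in members and 0.691 in other cells, and Notch3 and Procr narrow to near 1.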

How the data were processed

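For 1 trace and 1 pulse library (10x Genomics, 3' V2 chemistry per the labels' protocols) the files deposited by the authors hold unnormalized UMI counts, genes by barcodes. Cell Ranger 7.1.0 wrote them, per the file headers, but version 3.0.1 is named by the submitters' processing notes, beside STAR, HTSeq, Seurat, DESeq2 and mm10. Whether intron reads entered the counts is not given in the sources used here. The filter of 500 genes and 10% mitochondrial UMIs kept 9247 of 10423 trace and 6533 of 6863 pulse barcodes. The members and gene lists were chosen with earlier results of these data known.

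Counts were summed over cells and scaled to CPM. Ratios carry exact conditional Poisson intervals, levels exact Poisson intervals and shares Clopper-Pearson intervals, all at 95%. PCR copies were collapsed by UMI, so these intervals cover counting error alone. With 1 library a group there was no test across animals. Counts of listed genes against other trace cells leave out the genes of the rule and use a floor in either group, both set after the data were seen. Doublets were kept, and the highest 5% of Scrublet scores were left out as an alternative. Other classes needed at most 1 choosing gene and, apart from endothelial cells, at most 1 endothelial gene. Lining cells, connective fibroblasts and endothelial cells needed 2 or more of their own genes, neutrophils 3, and chondrocytes 5 Acan UMIs. Genes named were the choosing genes, markers, Procr, Thbd, F2r and Tdtomato, the extreme ratios of each comparison and members of the lists; genes of the Procr comparison, the sex-linked genes and those of the narrowing were picked once their values were known. The ratios and calls were first tested on simulated data. The scripts ran under scanpy 1.11.5, pandas 2.3.3, scipy 1.17.1, numpy 2.4.6, matplotlib 3.10.9 and Python 3.11.15. One result is not reported here.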

Additional observations from a re-analysis of the deposited data

Results flagged for a closer look

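Barcodes that failed the cell filter of 500 genes and 10% mitochondrial UMIs, and so enter no comparison, still held some that met the gene part of the mural rule. There were 24 of 1176 in trace (2.04%, 1.31 to 3.02) and 5 of 330 in pulse (1.52%, 0.494 to 3.50), above the 3 that a count of 0 allows. Their median depth was 750.5 UMIs in trace and 669 UMIs in pulse. The 24 trace barcodes carried 31 UMIs of Acta2, 71 of Tagln and 10 of Procr, and the 5 pulse barcodes carried 2 of each.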

How the results depend on the processing

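Of 139 values of the main results under the alternatives, 104 stayed within 1.5 times the reported count or within its interval. The narrowing, the comparison by Procr and the omission of the top pulse cell were chosen after seeing the data. The share of passing cells that were members was 2.66% in trace and 0.391% in pulse with 1000 or more genes, 2.28% and 0.260% with 3 or more choosing genes, and 2.75% and 0.398% without cells carrying markers of other cells. Procr in trace was 1251 CPM with 1000 or more genes, 1499 CPM without cells carrying markers of other cells, 1296 CPM without ribosomal RNA-associated and mitochondrial transcripts, 1315 CPM without Prg4-rich members and 1374 CPM in narrowed members. Procr in pulse was 1414 CPM with 3 or more choosing genes, 1611 CPM without cells carrying markers of other cells, 1529 CPM without Prg4-rich members or in narrowed ones, and 530 CPM without its top cell.

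Genes higher with Myh11, 267 as reported, numbered 435 with 3 or more choosing genes, 408 at 2 or more Myh11 UMIs, 475 after thinning, 818 at a floor of 20 CPM and 99 at 100 CPM. Genes lower, 221 as reported, numbered 344 at 2 or more Myh11 UMIs, 370 after thinning, 560 at 20 CPM and 113 at 100 CPM. Contractile genes higher with Myh11 numbered 12 to 20 over all alternatives. Genes higher in trace, 237 as reported, numbered 360 with 3 or more choosing genes, 514 at a floor of 50 CPM, 126 at 200 CPM and 398 with ratios divided by their median. Genes lower in trace, 516 as reported, numbered 813, 939, 237 and 324 under the same alternatives. Within members with Myh11 alone 972 genes were higher in Procr-high cells, and within those without it 6 contractile genes were lower. Neither count has a share over all genes of these smaller pools beside it, and the cause was not tested.

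Of 178 values of single genes, 153 stayed, 13 fell short of 2-fold, 4 passed it, 6 moved and 2, past 2-fold as reported, changed sign by any amount. With 3 or more choosing genes the log2 ratio with over without Myh11 was 0.073 for Dcn and 1.47 for Col1a1, against -2.72 and -2.28 as reported; the cause was not tested. Acta2 in trace over pulse fell short of 2-fold under 5 alternatives and Tagln under 4. No paired analysis was possible because each group is 1 library. Depth limits the pulse values, since pulse members hold 86786 UMIs, against 877864 in trace members.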

Other observations

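Of 23 S and G2/M genes 8 reached 20 CPM in trace members or other trace cells, and 3 of those were at least 2-fold above other cells (Ccnb2, Cenpf and Nusap1), without a test. The list summed to 673 CPM in trace members, against 382 CPM in other trace cells, and to 299.6 CPM in pulse members. It took a median of 0.0235% of UMIs in trace members and 0.0128% in other trace cells, and up to 1.10% in a single member. That member is left out by the narrowing, after which the highest share was 0.936% with Myh11 and 0.286% without it. Of 8 measured interferon and MHC class I genes 5 were 2-fold above other trace cells and 0 below. Of 25 TGF-beta and BMP genes 5 were above and 7 below, where 16.1% of all genes were above and 12% below. Of 5 measured marrow stroma markers 4 were above other trace cells (Cxcl12, Kitl, Lpl and Ebf3) and 1 below (Foxc1), while Lepr, under 20 CPM on both sides, was 1.14 CPM in trace members and 9.24 CPM in other trace cells.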
